A study of Mus musculus with 12 samples.

Results

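The genes described here act in mitosis: 40 genes of chromosome condensation, kinetochores, the cyclin-CDK1 switch, mitotic kinases, spindle motors, mitotic exit and proliferation. They were chosen by name, and all 40 were found among the 24982 gene symbols of each deposited file. RNA was measured in B lymphocytes from the spleens of mice 6 weeks old, in 3 genotypes with 4 libraries each, which the labels call biological replicates. Wild-type mice (WT, C57BL/J6) carried no transgene. Eμ-Myc mice carried a transgene that drives Myc from the immunoglobulin heavy-chain enhancer, which is active in B-lineage cells. The third group, Eμ-Myc; PRPS2 KO, carried the same transgene and lacked PRPS2, a phosphoribosyl pyrophosphate synthetase, whose product feeds nucleotide synthesis. It is called the knockout group here, and both transgenic groups share Eμ-Myc. The labels do not say how many mice gave a library, and p-values measure the spread between these libraries.

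Mitosis separates the copied chromosomes into daughter cells. Condensins and topoisomerase II compact the chromosomes, CDK1 with its cyclins drives entry, kinetochores attach chromosomes to the spindle, and the spindle checkpoint holds back the anaphase-promoting complex (APC/C) until all are attached. The APC/C then marks securin and cyclin B for destruction, which frees separase to cut cohesin. Most of these genes are transcribed in G2 and mitosis, so their RNA is low in resting cells. Resting B cells make up most of a normal spleen's B-cell pool, and MYC is known for driving such cells into growth and division.

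Many promoters of such genes hold a CHR element (cell cycle genes homology region), which binds the DREAM repressor in resting cells and the MuvB complex with B-MYB and FOXM1 in dividing cells, and CCAAT boxes bound by NF-Y. Promoter windows from RefSeq (GRCm38.p6, 250 bases before to 50 after the start) were found for 32 of the 40 genes, with 33 windows in all. None was found for Aurkb, Tpx2, Ccna2, Foxm1, Smc4, Incenp, Cdc25c and Kif20a, so these were not searched. The letters TTTGAA or TTCGAA on either strand, as in CHR elements, occurred in 25 of the 33 windows (75.8%) and in 19.2% of all 32851 windows of the table. CCAAT on either strand occurred in 25 windows (75.8%) and in 37.4% of all. Both occurred in 23 (69.7%), against 7.52% of all. The E-box CACGTG, the letters that MYC with MAX prefers, occurred in 2 (6.06%, those of Ttk and Espl1), against 7.15% of all. These are matches of letters and not tests of binding.

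The stretches of the 4 genes with the largest increase among those whose window held a CHR-like match are shown. They were picked for that match, so its presence in them adds nothing to the shares above. Ccna2 (log2 fold change 3.16) rose more than Kif11 (3.14) but had no window to search. The stretch of Ccnb1, the gene with the largest increase of all, was added after its values were seen and holds CCAAT matches alone. It covers only the first 46 of the 100 bases before the tabulated start, and no CHR-like match occurred in the whole Ccnb1 window. That start lay 84 bases inside the outermost protein-coding transcript of GENCODE. Capitals mark the CHR-like letters (TTTGAA, which reads TTCAAA from the other strand) and the CCAAT box (which reads ATTGG from the other strand). Each runs 5′ to 3′ on the gene's strand from 100 bases before the tabulated start, in GRCm38 (mm10).
Ttk, chr9:83834589-83834701, plus strand: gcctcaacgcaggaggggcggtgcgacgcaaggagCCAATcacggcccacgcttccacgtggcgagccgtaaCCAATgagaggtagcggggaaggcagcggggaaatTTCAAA
Cdk1, chr10:69352913-69353012, minus strand: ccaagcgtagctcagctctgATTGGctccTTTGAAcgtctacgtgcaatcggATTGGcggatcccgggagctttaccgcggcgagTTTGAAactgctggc
Ube2c, chr2:164769829-164769927, plus strand: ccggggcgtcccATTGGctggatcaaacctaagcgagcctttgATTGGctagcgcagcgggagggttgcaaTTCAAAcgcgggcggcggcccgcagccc
Kif11, chr19:37376282-37376381, plus strand: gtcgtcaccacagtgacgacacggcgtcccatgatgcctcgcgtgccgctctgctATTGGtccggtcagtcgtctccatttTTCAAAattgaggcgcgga
Ccnb1, chr13:100786541-100786586, minus strand: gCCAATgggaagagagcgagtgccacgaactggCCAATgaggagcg
In the first 4 a CHR-like match lies downstream of a CCAAT match and within 50 bases of the start. Of the 33 CHR-like matches in all the windows, 22 began in the 50 bases on either side of the start. Windows with neither motif were those of Birc5, Mad2l1, Ncaph, Nuf2, Nusap1 and Pttg1 (18.2%, against 50.9% of all). For Pttg1, Kif2c, Cenpa, Ncapd2 and Kif4 the tabulated start lay more than 100 bases inside the outermost protein-coding transcript of GENCODE. The distance was 270 bases for Pttg1, 328 for Kif4 and 3867 for Kif2c. That is farther than the windows reach upstream, so a promoter before the outermost start would be missed there. For Cenpa (109 bases) and Ncapd2 (115 bases) the outermost start lay inside the window, which covers part of the stretch before it.

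The values were read as mean coverage per gene, scaled between libraries, which would be a level per length of transcript. How coverage was counted is not given in the sources used here, so levels of different genes may not compare. The sum of coverage ran from 1277306 to 1885769 per library, with 14900 to 16231 genes above 0, and the number of reads under each value cannot be read from the files. Prps2 lay at 97.9 to 140.0 in WT, 198.5 to 287.0 in Eμ-Myc and 16.2 to 18.3 in the knockout group, so the targeted gene was low in every library labelled as lacking it. The 7 B-cell markers summed here, among them Cd79a and Pax5, were above 0 in every library and summed to 5544 to 11045 in WT, 6477 to 7961 in Eμ-Myc and 5838 to 6478 in the knockout group. Markers of other cells were present too. Those of T cells (9 genes) summed to 659 to 3392 in WT, 151 to 212 in Eμ-Myc and 56 to 842 in the knockout group. Those of NK cells (7 genes) summed to 346 to 1478, 94 to 245 and 22 to 577, and those of myeloid cells (11 genes) to 8730 to 26924, 5996 to 17582 and 1466 to 16682. No T-cell, NK or myeloid marker was at 0 in any library.

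Eμ-Myc against WT asks which genes differ with deregulated Myc in these cells. Mitotic RNA was higher in Eμ-Myc: 39 of the 40 genes rose and 1, Pttg1, fell. The median log2 fold change of the 40 was 2.89, with a range from -0.69 to 3.46, where the median of all 12723 genes tested was -0.01. In limma with Benjamini-Hochberg adjustment over all those genes, 55.1% were called at an adjusted p under 0.05 in either direction, 30.4% as higher and 24.7% as lower. For 38 of the 40 all 4 Eμ-Myc libraries lay above all 4 WT libraries, where 51.4% of all genes had groups that did not overlap in either direction. All 40 passed the filter on low values, and none was at 0 in any library. In these bulk samples a different share of dividing cells and a different amount of RNA per cell cannot be told apart. T-cell and NK markers, all 16 of them called lower in Eμ-Myc, moved with the groups. So did markers of B-lineage stages. Of 7 germinal centre B markers 5 were called lower (sums of 110 to 190 in WT and 34 to 57 in Eμ-Myc). Of 7 early B markers tested 5 were called higher, among them Rag2 (log2 fold change 3.53) and Rag1 (3.01), and Il7r was called lower (-2.39). Il7r was at 122.5, 46.4, 73.0 and 377.9 in WT libraries 1 to 4, where T-cell markers summed to 1141, 659, 822 and 3392. Whether its fall belongs to B-lineage stage or to T cells was not tested. Of 7 plasma cell markers 2 were called higher and 2 lower. Of the 7 B-cell markers 1 was called, Cd22, as lower (log2 fold change -0.94, limma adjusted p = 0.00534). The part of other cells and of B-lineage stage in the result was not tested.

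**Figure D1:**
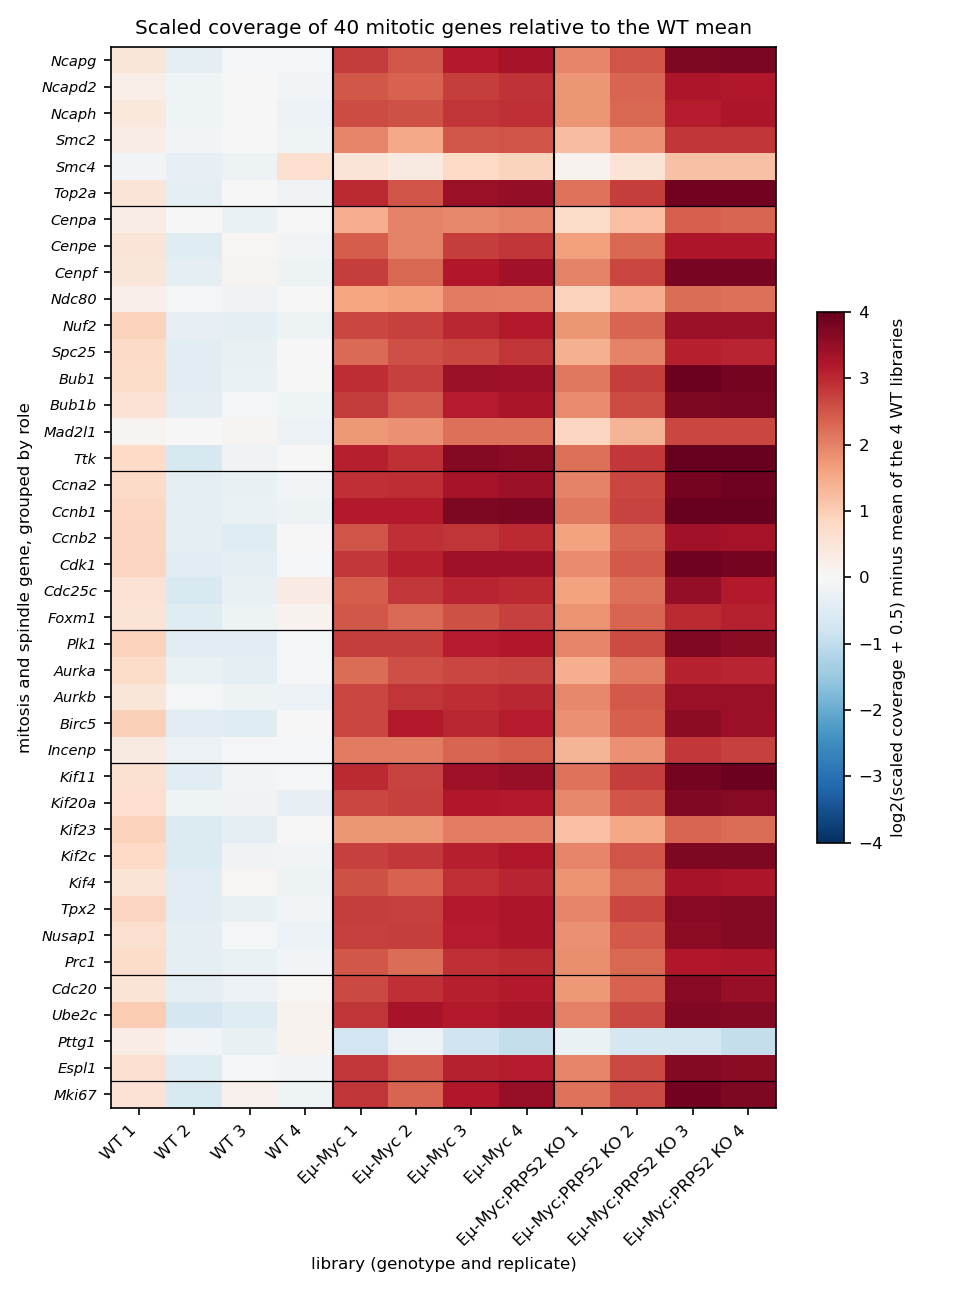
Log2(scaled coverage + 0.5) of each of the 40 mitotic genes (rows, grouped by role, black lines between roles) in each of the 12 libraries (columns), minus the mean of the 4 WT libraries; red is higher and blue lower than the WT mean. Every row but Pttg1 is above the WT mean throughout both transgenic groups, with Smc4 the palest of them, and the 4 knockout libraries differ among themselves more than the 4 Eμ-Myc libraries do.

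Among the 6 genes of chromosome condensation all rose. Top2a, which encodes topoisomerase II alpha and untangles the DNA of sister chromatids, rose most. Its scaled coverage was 55.0, 29.3, 39.4 and 34.9 in WT libraries 1 to 4 and 309.2, 224.2, 423.2 and 442.8 in Eμ-Myc libraries 1 to 4. The groups lay far apart, with a log2 fold change of 3.11 (SE 0.25, with an adjusted p of 1.52e-05 in limma). The condensin I subunits Ncapg, Ncapd2 and Ncaph rose by log2 fold changes of 2.94, 2.62 and 2.74. Smc2, an ATPase core subunit of both condensins, rose by 2.11. Its partner Smc4 (chr3:69004738-69034623) changed least. Smc4 was at 255.8, 222.6, 241.2 and 440.3 in WT and at 395.5, 360.9, 488.0 and 518.9 in Eμ-Myc. WT 4 lay inside the Eμ-Myc range and the groups overlapped. The log2 fold change was 0.64 (SE 0.22, with an adjusted p of 0.0316 in limma). Scaling by total coverage ended the call (adjusted p = 0.0974), as did 1 fit of all 12 libraries (adjusted p = 0.0712) and leaving out WT 1 (0.067), WT 2 (0.0791), WT 3 (0.0776), Eμ-Myc 3 (0.0811) or Eμ-Myc 4 (0.0827). WT 4 also had the highest marker sums of all libraries for T cells (3392), NK cells (1478) and erythroid cells (933, 12 genes). The part of these cells in the Smc4 value was not tested. On the scale of coverage, WT libraries held Smc4 at 290.0 ± 101.1 and Smc2 at 34.9 ± 5.48 (SD, n = 4). Whether coverage compares between genes was not tested.

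All 10 genes of kinetochores and the checkpoint rose, with a median log2 fold change of 2.74. Ttk, which encodes the MPS1 kinase that starts checkpoint signalling at unattached kinetochores, rose most. It was at 15.8, 5.44, 7.91 and 8.84 in WT and at 79.3, 70.8, 118.6 and 114.1 in Eμ-Myc. The lowest Eμ-Myc library lay above the highest WT library, and the log2 fold change was 3.33 (SE 0.3, with an adjusted p of 2.8e-05 in limma). Bub1, a checkpoint kinase, rose by 3.13, Bub1b (BUBR1, part of the APC/C inhibitor) by 2.91 and Mad2l1 (MAD2, another part of it) by 1.99. The corona proteins Cenpf and Cenpe, the latter a kinesin, rose by 2.91 and 2.51.

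The NDC80 complex binds microtubules, and 3 of its subunits are among the 40 genes. Nuf2 rose by a log2 fold change of 2.89 and Spc25 by 2.59. Ndc80 rose least of the 10 genes. It was at 19.8, 15.8, 15.4 and 17.0 in WT and at 51.3, 53.3, 73.8 and 71.1 in Eμ-Myc, with a log2 fold change of 1.83 (SE 0.15, with an adjusted p of 1.46e-05 in limma). Nuf2 was at 32.9, 13.7, 13.2 and 14.9 in WT and at 112.5, 117.7, 142.8 and 158.3 in Eμ-Myc. The groups did not overlap for either gene. Cenpa, the histone variant that marks centromeres, had the highest mean coverage of the 40 in WT, at 360.6, 292.4, 244.0 and 298.0. In Eμ-Myc it was at 803.5, 1168, 1111 and 1209, a log2 fold change of 1.84. Cenpf had the lowest mean coverage of the 40 in WT, with libraries at 1.97 to 3.92, and reached 15.0 to 32.4 in Eμ-Myc. Differences in fold change between these subunits were not tested.

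**Figure D2:**
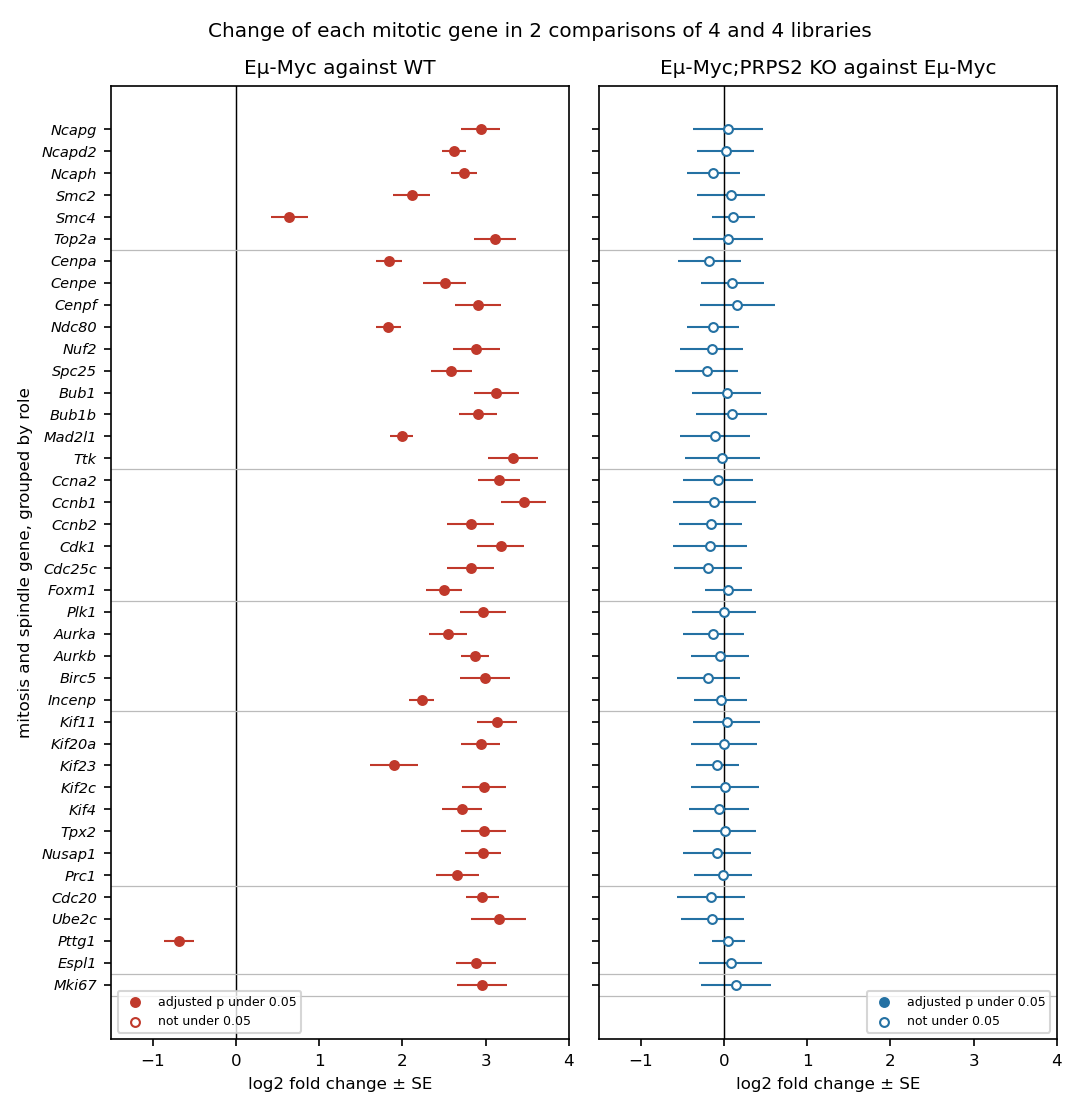
Log2 fold change with its SE (bars) for each of the 40 genes in Eμ-Myc against WT (left) and in the knockout group against Eμ-Myc (right), 4 libraries in each group; filled points have a limma adjusted p under 0.05. On the left 39 genes lie right of 0 and Pttg1 lies left of it, and on the right no point is filled and every gene lies between -0.21 and 0.16.

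The 6 genes of the cyclin-CDK1 switch and its transcription all rose, with a median of 2.99. Ccnb1 (chr13:100778739-100786486), which encodes cyclin B1, the partner that activates CDK1 for mitotic entry, rose most of the 40. Its coverage was 17.3, 7.22, 7.91 and 8.28 in WT and 90.1, 89.5, 132.5 and 134.8 in Eμ-Myc. WT 1 stood above the other WT libraries, and even so lay far below every Eμ-Myc library. The log2 fold change was 3.46 (SE 0.27, with an adjusted p of 1.36e-05 in limma). Cdk1 itself was at 14.1, 5.53, 5.74 and 7.27 in WT and at 56.9, 68.5, 84.5 and 84.6 in Eμ-Myc, a log2 fold change of 3.18. Ccna2 (cyclin A2) rose by 3.16, Ccnb2 (cyclin B2) by 2.82 and Cdc25c, a phosphatase that activates CDK1, by 2.82. Foxm1, a transcription factor of G2 and mitotic genes, rose least of the 6. It was at 11.4, 5.25, 6.50 and 8.28 in WT and at 44.5, 38.3, 46.3 and 52.5 in Eμ-Myc. Its groups were apart, at a log2 fold change of 2.50 (SE 0.22, with an adjusted p of 1.98e-05 in limma).

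The 5 genes of mitotic kinases and the chromosomal passenger complex rose within a narrower range. Birc5 (survivin), which brings the complex to centromeres, was at 34.0, 12.6, 12.2 and 17.1 in WT and at 112.0, 159.5, 144.0 and 155.7 in Eμ-Myc. That was the largest change of the 5, a log2 fold change of 2.99 (SE 0.3, with an adjusted p of 5.06e-05 in limma). Incenp, the scaffold of the complex, changed least. It was at 40.8, 27.0, 30.9 and 30.8 in WT and at 136.2, 136.6, 163.6 and 175.3 in Eμ-Myc, a log2 fold change of 2.23 (SE 0.15, with an adjusted p of 4.52e-06 in limma). Aurkb, the kinase of the complex, rose by 2.87. Plk1, a kinase of entry, spindle and exit, rose by 2.97, and Aurka, the spindle pole kinase, by 2.55.

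All 8 genes of motors, spindle and midzone rose, with a median of 2.96. Kif11 encodes the kinesin Eg5, which pushes the spindle poles apart. It was at 19.8, 9.47, 12.1 and 12.3 in WT and at 106.5, 86.9, 139.7 and 150.8 in Eμ-Myc, a log2 fold change of 3.14 (SE 0.24, with an adjusted p of 1.05e-05 in limma). Kif23, a kinesin of the central spindle needed for cytokinesis, changed least of the 8. It was at 40.8, 14.4, 16.2 and 21.0 in WT and at 72.5, 72.8, 89.3 and 89.6 in Eμ-Myc, a log2 fold change of 1.90 (SE 0.29, with an adjusted p of 0.000526 in limma). The groups of both genes were apart, and WT 1 was the highest WT library for each. Tpx2, which nucleates spindle microtubules and activates Aurora A, rose by 2.98, and so did Kif2c, a microtubule depolymerase. Nusap1 (spindle bundling) rose by 2.97, Kif20a (cytokinesis) by 2.94, Kif4 (chromosome arms and midzone) by 2.72 and Prc1 (midzone crosslinker) by 2.66.

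The 4 genes of destruction by the APC/C and sister separation did not move alike. Ube2c, the ubiquitin-conjugating enzyme of the APC/C, was at 75.7, 23.1, 26.4 and 41.3 in WT and at 271.5, 371.7, 342.6 and 365.0 in Eμ-Myc. It rose by a log2 fold change of 3.16 (SE 0.33, with an adjusted p of 8.21e-05 in limma). Cdc20, the APC/C activator that the checkpoint inhibits, rose by 2.96. Espl1, which encodes separase, was at 13.0, 5.63, 7.81 and 7.38 in WT and at 60.0, 48.6, 71.9 and 75.1 in Eμ-Myc, a log2 fold change of 2.89. Pttg1 (chr11:43420244-43427463) encodes securin, the inhibitor of separase, and went the other way. It was at 124.6, 94.0, 82.8 and 112.7 in WT and at 59.9, 86.3, 59.0 and 52.2 in Eμ-Myc. Eμ-Myc 2 lay inside the WT range, so the groups overlapped, and the log2 fold change was -0.69 (SE 0.18, with an adjusted p of 0.00925 in limma). Pttg1 fell in all 17 alternatives, from -0.87 to -0.60, with adjusted p up to 0.0288. In WT the library with the highest Pttg1, WT 1, had the highest myeloid marker sum, 26924, and WT 4, the next, had the highest T-cell, NK and erythroid sums. The part of other cells in its value was not tested. Mean coverage of Espl1 and Pttg1 was 8.46 ± 3.19 and 103.6 ± 18.7 in WT and 63.9 ± 12.1 and 64.3 ± 15.0 in Eμ-Myc (SD, n = 4). Coverage of Pttg1 was thus well above that of Espl1 in WT and near it in Eμ-Myc. How coverage was counted is not given, so these values do not give the balance of the RNAs.

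Mki67, the proliferation marker Ki-67 that coats mitotic chromosomes, was at 29.3, 12.6, 21.9 and 17.2 in WT and at 142.2, 98.5, 180.4 and 219.8 in Eμ-Myc. The groups were apart, with a log2 fold change of 2.96 (SE 0.3, with an adjusted p of 5.47e-05 in limma).

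**Figure D3:**
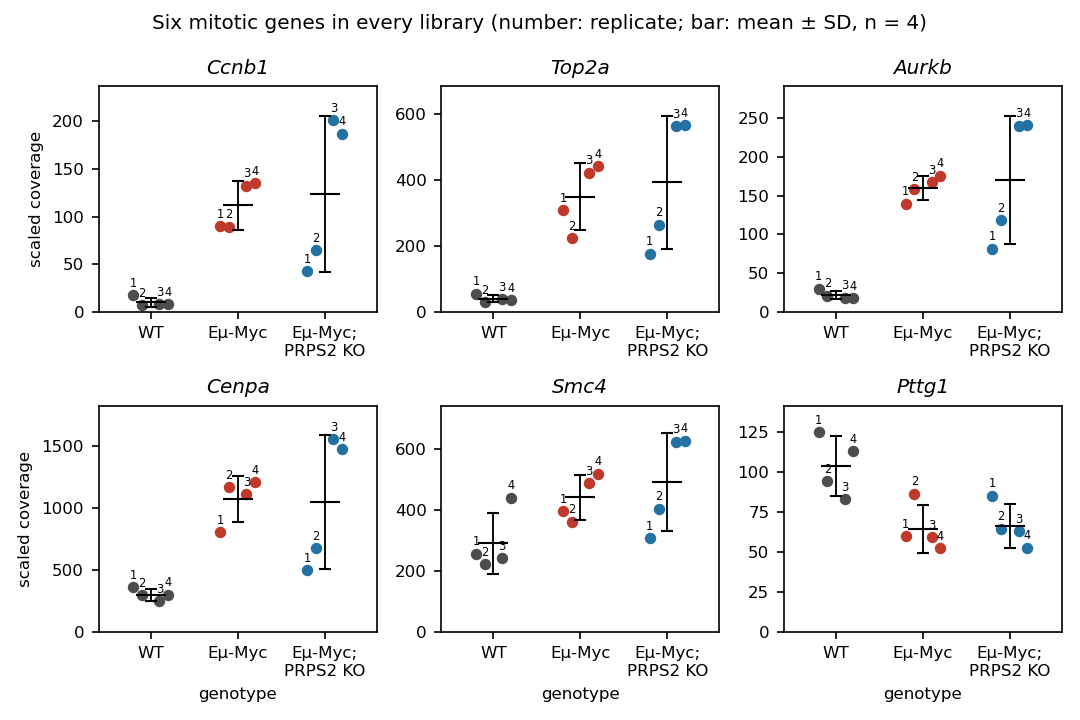
Scaled coverage (vertical axis, starting at 0) of Ccnb1, Top2a, Aurkb, Cenpa, Smc4 and Pttg1 in every library of the 3 genotypes; numbers are replicates, and bars are the mean ± SD of 4 libraries. Ccnb1, Top2a, Aurkb and Cenpa are apart between WT and both transgenic groups, Smc4 and Pttg1 overlap, and the knockout libraries 1 and 2 lie below libraries 3 and 4 for every gene but Pttg1.

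Within WT the 40 genes were not equally low in every library. WT 1 held the highest WT value for 39 of the 40, and WT 4 for Smc4. The median of the 40 relative to the WT mean was 0.59 on the log2 scale in WT 1 and -0.38, -0.20 and -0.09 in WT 2, 3 and 4. The myeloid marker sum was 26924 in WT 1 and 8730, 8831 and 15018 in the others, and the B-cell sum was 5803, against 11045, 9277 and 5544. The largest members of the myeloid sum were S100a9 and S100a8, at 13860 and 5480 in WT 1. Csf1r and Adgre1 were at 297.5 and 250.5 in WT 1 and higher in WT 3 (306.8 and 338.7), while the other myeloid markers were highest in WT 1. The part of these cells in the higher mitotic RNA of WT 1 was not tested. Leaving out WT 1 kept the calls of 39 of the 40 genes, and Smc4 was the exception.

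The knockout group against Eμ-Myc asks whether loss of PRPS2 altered Myc-driven expression. In limma 0 of the 40 genes were called, and 0 had an unadjusted p under 0.05. Of all 12551 genes tested 0.00797% were called, which is 1 gene, Prps2 itself, and 121 (0.964%) had an unadjusted p under 0.05. The log2 fold changes of the 40 ran from -0.21 to 0.16 with a median of -0.03, which is also the median of all genes. SEs ran from 0.20 to 0.50 on the log2 scale. None of the 40 had groups that did not overlap, where 1.53% of all genes did. A miss of the threshold does not show that the groups were alike.

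The 3 genes with the smallest p were Spc25, Birc5 and Cdc25c. Spc25, the kinetochore subunit, was at 164.7, 206.6, 222.2 and 251.1 in Eμ-Myc and at 92.4, 135.2, 296.3 and 288.7 in the knockout group, a log2 fold change of -0.21 (SE 0.38, with an adjusted p of 1.00 in limma). Birc5 was at 62.9, 93.0, 212.9 and 190.3 in the knockout group, and Cdc25c at 9.65, 15.0, 38.0 and 30.1, where Eμ-Myc held it at 17.5, 23.4, 27.0 and 26.4. Both differences were -0.19 (SE 0.38 and 0.41, limma adjusted p = 1.00 for each). Without knockout library 1 the differences turned above 0, to 0.12 for Spc25, 0.14 for Birc5 and 0.15 for Cdc25c. With library quality weights they were 0.38, 0.44 and 0.32, and Spc25 and Birc5 were called (limma adjusted p = 0.0313 and 0.0153). For all 3 the knockout libraries lay on both sides of the Eμ-Myc range.

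The knockout libraries differed from each other more than any other group did. For Ccnb1 they were at 42.7, 64.9, 200.9 and 187.0 around an Eμ-Myc range of 89.5 to 134.8, so libraries 1 and 2 lay below it and libraries 3 and 4 above it. For Aurkb they were at 81.6, 118.8, 240.6 and 241.3 around 139.7 to 175.8. Top2a was at 177.2, 265.3, 563.9 and 567.9, where library 2 lay inside the Eμ-Myc range. Knockout library 1 lay below every Eμ-Myc library for 39 of the 40 genes (97.5%), against 37.4% of all genes. Library 2 did so for 26 (65.0%), against 30.2%. Library 3 lay above every Eμ-Myc library for 39 genes, against 37.5% of all genes, and library 4 also for 39, against 36.8%. Pttg1 was the exception, at 85.0, 64.4, 62.8 and 52.5, all inside the Eμ-Myc range. The median SD within the group over the 40 genes was 0.83 on the log2 scale, against 0.26 in Eμ-Myc and 0.45 in WT. Over 12361 genes these medians were 0.38, 0.21 and 0.21.

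Other measures moved with the same libraries. Myc was at 1099, 1718, 3017 and 3282 in knockout libraries 1 to 4 and at 1822, 1559, 2302 and 1979 in Eμ-Myc. T-cell markers summed to 761, 842, 56 and 57 in the knockout libraries, NK markers to 577, 442, 25 and 22, and myeloid markers to 16682, 12178, 3155 and 1466. B-cell markers summed to 6072, 6478, 5838 and 6126, nearly level, but single markers were not. Cd22 was at 815.2, 795.1, 474.8 and 473.2 and Blk at 215.1, 201.5, 135.7 and 143.6, while Ebf1 was at 658.2, 787.7, 858.9 and 979.6. Lists of B-lineage stages were not all level. Germinal centre B markers (7 genes) summed to 81, 68, 13 and 14 in knockout libraries 1 to 4, against 34 to 57 in Eμ-Myc, and 1 of the 7 was at 0 in at least 1 knockout library. Early B markers (8 genes) summed to 929, 1021, 1591 and 1462, and plasma cell markers (7 genes) to 925, 1132, 1040 and 1019. Within both lists members moved in opposite directions. Of the early B list Vpreb3 was at 802.2, 878.8, 1553 and 1427, while Rag1 was at 22.0, 27.6, 8.44 and 10.2 and Il7r at 84.9, 99.7, 7.66 and 5.99. The T-cell marker sum was also high in libraries 1 and 2 and low in libraries 3 and 4, and the part of T cells in Il7r was not tested. Of the plasma cell list Jchain was at 183.6, 233.9, 2.00 and 2.44 and Xbp1 at 184.6, 212.9, 91.1 and 93.2, while Mzb1 was at 429.7, 534.8, 795.4 and 744.5. Prps2 was level too, at 18.3, 17.0, 17.1 and 16.2. The part of Myc level, of B-lineage stage and of other cells in the mitotic RNA of these libraries was not tested. With library quality weights, which gave the 4 knockout libraries weights of 0.0817, 0.129, 3.20 and 7.76, limma called 37 of the 40 genes higher in the knockout group. That fit called 7459 of the 12551 genes in all, and rests almost wholly on knockout libraries 3 and 4.

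**Figure D4:**
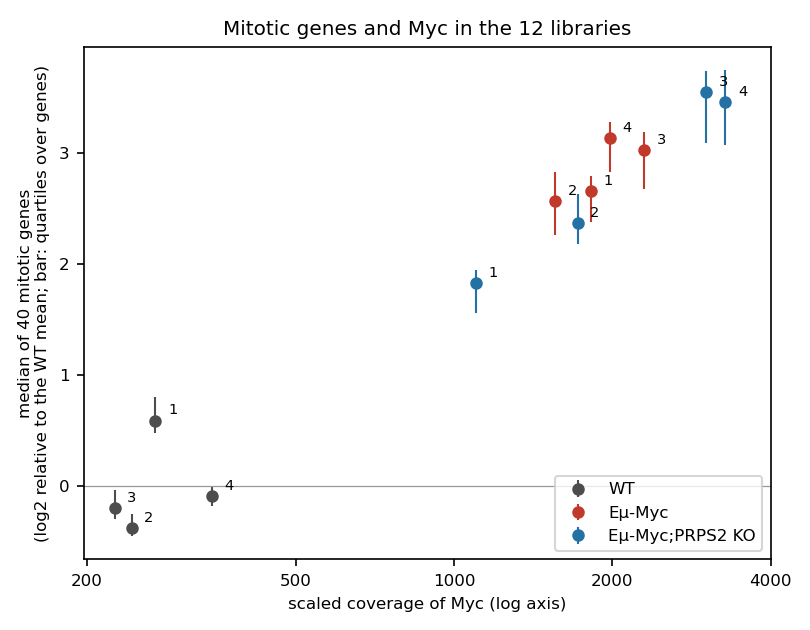
Median of the 40 mitotic genes relative to the WT mean (vertical axis, log2 scale; bars are quartiles over genes) against the scaled coverage of Myc (horizontal log axis) in each of the 12 libraries, numbered by replicate. WT libraries lie near 0, knockout libraries 1 and 2 have medians of 1.83 and 2.37, the Eμ-Myc libraries 2.57 to 3.14, and knockout libraries 3 and 4 have 3.55 and 3.46.

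The knockout group against WT shares the WT libraries with the first comparison, so it is no separate support for it. Of the 40 genes 38 were called higher, Pttg1 was called lower and Smc4 was not called. Of all 12692 genes 29.3% were called, 19.7% as higher and 9.6% as lower. Without WT 3 far fewer of all genes were called, while 35 of the 40 were. The groups did not overlap for 38 of the 40 genes, against 37.1% of all. The median log2 fold change was 2.80, against -0.01 for all genes, and 3.65 with library quality weights. The 5 largest increases were those of Ccnb1 (3.34, SE 0.54), Ttk (3.31, SE 0.49), Kif11 (3.17, SE 0.42), Top2a (3.17, SE 0.4) and Bub1 (3.16, SE 0.45), with limma adjusted p from 0.00954 to 0.0106. Ttk was at 42.6, 65.1, 162.0 and 158.2 in the knockout libraries, Kif11 at 59.8, 91.8, 190.0 and 201.5, and Bub1 at 40.6, 65.4, 145.2 and 137.0. Every one of these lay above all WT libraries. Markers of other cells and stages differed here too. Of 5 platelet markers 4 were called lower, of 7 germinal centre B markers 3 lower, and of 7 early B markers tested 5 higher. In the T-cell, NK and myeloid lists 0 markers were called, at median log2 fold changes of -3.20, -2.51 and -1.15. The part of these cells and stages was not tested.

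Smc4 was at 308.0, 403.7, 623.5 and 627.0 in the knockout libraries, a log2 fold change against WT of 0.75 (SE 0.3, with an adjusted p of 0.0823 in limma). Knockout libraries 1 and 2 lay below WT 4. Without knockout library 1 it passed (0.95, adjusted p = 0.0254), as it did with library quality weights and with all 12 libraries in the fit. Pttg1 had a log2 fold change of -0.65 (SE 0.19, with an adjusted p of 0.0392 in limma). That call was lost without any 1 of the WT libraries or of knockout libraries 2, 3 and 4, with no filter and with the replicate block (adjusted p up to 0.109). The fall stayed between -0.80 and -0.54.

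Other genes of mitosis came from lists chosen by function, and their difference from the 40 genes was not tested. Of 126 genes in 8 lists, in Eμ-Myc against WT, 106 were called higher, 4 lower and 16 in neither direction, with a median log2 fold change of 1.43. Among all 12723 genes tested 30.4% were called higher and 24.7% lower. The genes named from each list are the 3 with its smallest adjusted p, which need not be those that rose most. All 19 of the inner kinetochore rose (median 2.36), among them Cenpn (2.95), Cenpm (2.94) and Cenpk (2.88), subunits of the complex that sits on CENP-A chromatin. All 12 other kinesins and cytokinesis genes rose (median 2.40), among them Cep55, an abscission factor (2.75), and the kinesins Kif22 (3.07) and Kif15 (2.91). In the outer kinetochore and checkpoint list 16 of 17 were called higher (median 1.97), among them Trip13 (2.98), Spdl1 (2.23) and Zwilch (2.48). Of 16 kinases and regulators of CDK1 15 rose (median 2.09), among them Cks1b (3.10), Nek2 (3.17) and Wee1 (2.22). Wee1 encodes an inhibitory kinase of CDK1, so activators and an inhibitor rose together.

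For the next 4 lists too, the shares of all genes tested were 30.4% called higher and 24.7% lower. Of 17 genes of the APC/C and its regulators 13 were called higher (median 0.69), among them Fbxo5 (2.18), the inhibitor EMI1, with Anapc5 (1.23) and Ube2s (1.78). Of 25 centrosome, augmin and gamma-tubulin genes 17 were called higher, and Haus8, which fell by 0.63, was called lower (median of the list 0.90). Haus4 (1.73), Tubg1 (1.26) and Tacc3 (2.25) were among those called higher. All 4 genes of the condensin II list rose (median 1.29), among them Ncapg2 (2.42), Ncaph2 (0.92) and Mcph1 (1.40). Of 16 cohesin genes and regulators 10 were called higher (median 0.76). Cdca5 (sororin, 3.06), Esco2 (3.18) and Sgo1 (2.82), which act on cohesion in S phase and mitosis, were among them. Wapl, which releases cohesin, fell by 1.08 on the log2 scale. Esco1, a cohesin acetyltransferase, fell by 0.74 and Mau2, part of the cohesin loader, fell by 0.49.

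Of 12 DREAM and MuvB genes 8 were called higher and 1 lower (median 0.81), where 30.4% of all genes tested were called higher and 24.7% lower. Mybl2, which encodes B-MYB, was at 5.96, 4.22, 3.86 and 4.36 in WT and at 35.4, 35.5, 42.4 and 38.8 in Eμ-Myc, a log2 fold change of 2.93 (SE 0.16, with an adjusted p of 2.22e-06 in limma). Tfdp1 rose by 2.24 and Rbbp4 by 1.13. Rbl2, which encodes the pocket protein p130 of the DREAM repressor, was at 131.4, 129.5, 148.6 and 153.8 in WT and at 99.5, 60.6, 82.5 and 85.8 in Eμ-Myc. It fell by 0.79 on the log2 scale, with groups apart. All 24 genes of the replication fork list rose (median 2.20), among them Lig1 (2.66), Mcm3 (2.09) and Mcm6 (2.14), so genes of S phase rose as well as those of mitosis. In the knockout group against Eμ-Myc limma called 0 of the 126 other mitotic genes, 0 of the 12 DREAM and MuvB genes and 0 of the 24 replication genes. None of the 126 or the 24 had an unadjusted p under 0.05 there, where 0.964% of all genes did and 0.00797% were called.

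Exons of 9 of the 40 genes overlap another gene of the files in GENCODE. Ccna2 overlaps Exosc9, Cdc20 Elovl1, Kif20a Cdc23, Kif4 Pdzd11, Ncapg Lcorl, Nusap1 Oip5, Prc1 Rccd1 and Ube2c Tnnc2, each on the opposite strand, and Foxm1 overlaps Tex52 on the same strand. Libraries were directional, but whether coverage was counted by strand is not given in the sources used here, so part of these values may be the neighbour's.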

How the data were processed

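Per the labels, RNA of splenic B lymphocytes was selected for poly(A) and made into directional libraries. The authors deposited 1 file per library of coverage, a signal per gene symbol with 1 decimal. It was read as mean coverage from the files' naming and because 91.6% of values above 0 were not whole. The submitters' processing notes name mm10, DESeq and R 4.3.3, without a role. The aligner, annotation and counting are not given in the sources used here.

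Libraries were scaled by an unweighted trimmed mean of log ratios (30% of ratios and 5% of means trimmed). Genes that reached a scaled coverage of 1 in 4 or more of the 8 libraries entering a fit were kept and tested by limma 3.58.1 in R 4.3.3 on log2(scaled coverage + 0.5), so folds of low genes are understated. Empirical Bayes was trended and robust, tests were two-sided, and p-values were Benjamini-Hochberg adjusted over all genes tested. Calls had an adjusted p under 0.05. The method was tested on simulated data. Motifs and tables used Python 3.11.15 with pandas 2.3.3, numpy 2.4.6 and matplotlib 3.10.9.

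The members, lists and tests were chosen with earlier results of these data known. Of the B-cell list 1 marker is not reported here. Full statistics are given for the largest and smallest change in each role, for the 3 smallest p between knockout and Eμ-Myc, for the 5 largest increases and any fall against WT, and in other lists the 3 smallest adjusted p are named. Values beyond that rule were given, after they were seen, for genes that fell in other lists. So were values of B-cell and B-lineage stage markers in the knockout libraries, and of Espl1, Cdk1, Nuf2, Cenpa, Cenpf, Aurkb, Mki67, Mybl2 and Rbl2. The alternatives were 2 other scalings, pseudocounts of 0.1 and 2, a replicate block, leaving the filter out or raising it to 10 across libraries, fitting all 12 libraries together, library quality weights and leaving out each library.

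The labels number replicates 1 to 4 in each group. Same-numbered knockout and Eμ-Myc libraries deviated from their group means with correlations over genes of 0.657, 0.192, 0.253 and 0.607, all over 0.1, so the numbers may pair these libraries, although only 2 of 4 libraries of each group were closest to their own number. The printed values come from the fit without the block, and a fit with the replicate block left 0 of the 40 genes called.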

Additional observations from a re-analysis of the deposited data

Results flagged for a closer look

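Of 120 groups of 4 libraries (40 genes in 3 genotypes), 6 held a library far from the other 3. Chance flags about 1 in 20 groups, but these groups are genes of the same 12 libraries that vary together, so the count cannot be set against chance. All 6 were in WT. The library was WT 1 with 32.9 for Nuf2, 35.3 for Ccna2, 17.3 for Ccnb1, 47.7 for Kif20a and 93.1 for Tpx2. It was WT 4 with 440 for Smc4. Even these values of WT 1 lay below every Eμ-Myc library, while that of Smc4 did not.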

How the results depend on the processing

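Of the 40 genes 39 kept their direction and call in Eμ-Myc against WT under each alternative that could test them, and Smc4 lost its call in 7 of 17. The median of the 40 ran from 2.71 to 3.21 there, from -0.26 to 0.49 between knockout and Eμ-Myc and, for the knockout, from 2.54 to 3.65 against WT. Requiring a coverage of 10 in all libraries left 26 of the 40 genes to test; 26 were then called for Eμ-Myc and 25 for the knockout, each against WT. Library quality weights raised the calls of the knockout group against Eμ-Myc from 0 to 37 and its median against WT from 2.80 to 3.65; the weights favour libraries 3 and 4. They also reversed Birc5 (0.44, adjusted p = 0.0153), Spc25 (0.38, adjusted p = 0.0313) and Cdc25c (0.32, adjusted p = 0.107). Leaving out 1 library gave 39 to 40 calls in Eμ-Myc against WT, 0 for the knockout against Eμ-Myc, and for the knockout against WT 35 to 40 (without WT 3, 35 of the 40 and 600 of all genes). In the second comparison it gave -0.45 to 0.14 for Birc5, -0.49 to 0.15 for Cdc25c and -0.44 to 0.12 for Spc25, above 0 without knockout library 1. Scaling by total coverage moved the median of all genes by -0.18 in Eμ-Myc against WT. With the replicate block 40 genes were called in Eμ-Myc against WT and 38 in the knockout group against WT, where not every same-numbered pair correlated above 0.1 (from -0.423 to 0.398). A planned fit of only some knockout libraries was not run, since it would choose libraries by measured values. Depth is unknown, so precision rests on 4 libraries a group.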
